A study of Mus musculus with 4 samples.

Results

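The phagocyte NADPH oxidase genes measured here are Cybb, Cyba, Ncf1, Ncf4 and Rac2, together with Rac1, a broadly expressed relative of Rac2, and Nox4, a separate oxidase known from mesenchymal cells. These 7 members were chosen by symbol from the subunit list, and all 7 had a value among the 19938 genes of the array. Each member was represented by 1 probe set. The arrays profiled bone marrow stromal cells of C57BL/6 mice with a nestin promoter that drives green fluorescent protein (Nes-gfp), sorted as CD45- CD31- Ter119- Nes-GFP+. The 3 MPN mice (myeloproliferative neoplasm) had received bone marrow cells with a mutant JAK2 and Mx1-cre, a Cre transgene driven by the interferon-inducible Mx1 promoter, and the 1 control mouse had received control marrow cells. All 4 were sampled 10 weeks after transplantation. The age of the mice, their sex and the genotype of the control donor cells were not stated in the sources used. By its title, each array is 1 mouse. The study concerned nerve damage in the marrow niche in this disease.

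The phagocyte oxidase is the enzyme with which neutrophils and macrophages make superoxide. Cybb encodes the catalytic membrane subunit, which carries electrons from NADPH to oxygen, and Cyba encodes the smaller membrane partner that stabilises it. In the resting cell the organising subunit Ncf1 and the regulatory subunit Ncf4 stay in the cytosol. On stimulation they move to the membrane with the small GTPase Rac2 and switch the enzyme on. Nox4 uses the same partner, Cyba, but needs none of the cytosolic subunits.

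The genes of 4 subunits were far higher in MPN than in the control. Cybb lay 14.7-fold higher, Ncf4 13.5-fold, Cyba 5.89-fold and Rac2 4.50-fold, each as the mean of 3 MPN arrays against 1 control array. The control level of Ncf4 was at background, so its fold is uncertain. Ncf1, Rac1 and Nox4 did not share a difference of that size. At least 2-fold higher on each of the 3 MPN arrays were 4 of the 7 members, against 1.13% of all genes, and 0 of the 7 were 2-fold lower on each, against 5.78%. With limma and Benjamini-Hochberg adjustment over all genes, 0 members passed an adjusted p of 0.05, as did 0% of all genes. At an unadjusted p under 0.05 with limma, 3 members were higher (Cybb, Ncf4 and Rac2), against 3.97% of all genes, and 0 were lower, against 8.63%. With 1 control array the spread comes from the MPN arrays alone. An exact permutation test of 3 arrays against 1 has 4 arrangements and cannot give a one-sided p below 0.25.

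Some facts of the arrays bear on every value. The values are log2 intensities normalised by the authors, on which a difference of 1 is 2-fold. Over all genes the median difference of MPN from control was 0.18. Over 1190 receptor genes of the olfactory and vomeronasal families, which are silent in most tissues, it was 0.26. The 95th percentile of their mean levels, 5.21, serves as the background limit. Where a value of a gene in either group lies under it, the size of the difference is uncertain. Levels of different genes are not compared, because each probe set has its own brightness. Genes of the sex chromosomes lay apart between the groups. Xist, which silences one X chromosome in females, stood at 8.37, 9.31 and 9.22 in MPN and 3.30 in the control, while the Y-linked Kdm5d was at 4.16, 4.16 and 4.14 against 7.72. Both genes fall outside the naming rule and were picked after their values were known. This difference and the group cannot be told apart.

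Cybb was at 11.00, 10.12 and 11.36 in MPN mice 1, 2 and 3 and 6.95 in the control. All 3 MPN arrays lay above the control, with mouse 2 the lowest of them, and the groups did not overlap. All 3 MPN arrays lay above the control for 46.8% of all genes and below it for 21.1%. The log2 difference was 3.87 (SE 0.58, 95% interval 2.13 to 5.61, limma adjusted p = 0.166), the 18th highest of the 19938 genes. Cybb is X-linked, so the Xist values above stand beside it. Its level lay above the background limit on all 4 arrays, including the control array.

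Cyba was at 8.98, 7.04 and 8.72 in the MPN mice and 5.69 in the control. All 3 MPN arrays lay above the control, as for 46.8% of all genes. Mouse 2 lay well below mice 1 and 3, which lay close together. The difference was 2.56 (SE 0.95, 95% interval -0.26 to 5.38, limma adjusted p = 0.418). It ran from 3.29 in mouse 1 to 1.35 in mouse 2. Cyba serves both the phagocyte enzyme and Nox4, so its level does not belong to one oxidase alone.

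**Figure D1:**
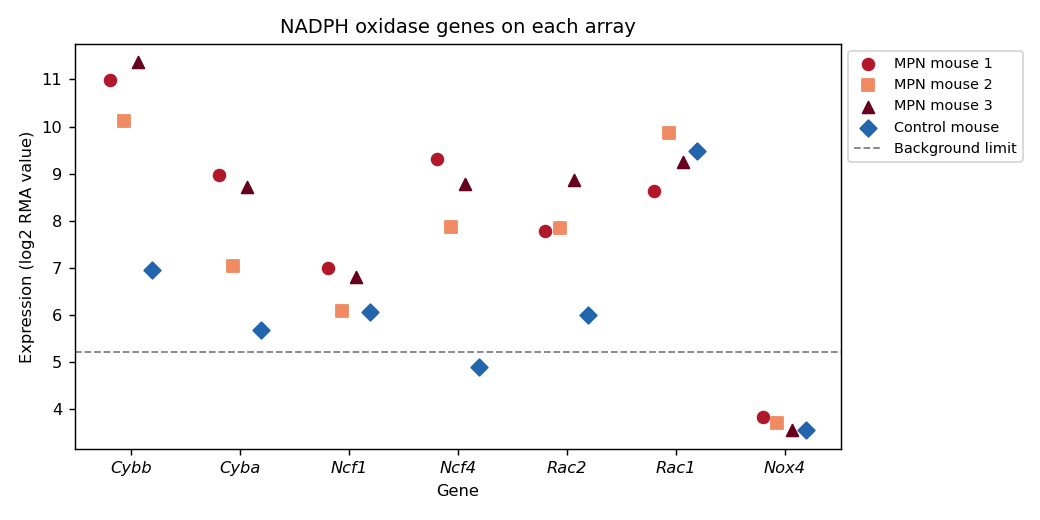
Log2 RMA values of the 7 oxidase genes on each array, with the 3 MPN mice and the control mouse as separate symbols and the background limit of 5.21 as a dashed line. Cybb, Cyba, Ncf4 and Rac2 lie well above the control on all 3 MPN arrays, Rac1 lies on both sides of it, and Nox4 lies under the limit on all 4 arrays.

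The promoter windows of the members show what sequence lies at their start sites. They are shown because 2 of them, Cybb and Cyba, belong to genes that were 2-fold higher on each MPN array, while Ncf1 and Nox4 were not. RefSeq windows of build GRCm38.p6, from 250 bases before to 50 bases after the start, matched 4 of the 7 members. Ncf4, Rac2 and Rac1 had no entry. The windows are chrX:9469275-9469574 on the minus strand for Cybb, chr8:122432891-122433190 on the minus strand for Cyba, chr5:134229576-134229875 on the minus strand for Ncf1 and chr7:87246399-87246698 on the plus strand for Nox4. Each is written 5′ to 3′ along its gene, and capitals mark every match, on either strand, to GAGGAA (the purine-rich core of sites of the myeloid factor PU.1), to TTGCNNAA (a pattern of C/EBP sites) and to an interferon-response pattern (GAAA, any 2 bases, GAAA).
Cybb: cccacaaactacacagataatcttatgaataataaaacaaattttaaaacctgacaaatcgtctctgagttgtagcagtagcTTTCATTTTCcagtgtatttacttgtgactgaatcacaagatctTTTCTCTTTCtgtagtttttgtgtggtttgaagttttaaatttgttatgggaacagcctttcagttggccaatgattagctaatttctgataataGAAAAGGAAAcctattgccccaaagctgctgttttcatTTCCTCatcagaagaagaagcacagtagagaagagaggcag
Cyba: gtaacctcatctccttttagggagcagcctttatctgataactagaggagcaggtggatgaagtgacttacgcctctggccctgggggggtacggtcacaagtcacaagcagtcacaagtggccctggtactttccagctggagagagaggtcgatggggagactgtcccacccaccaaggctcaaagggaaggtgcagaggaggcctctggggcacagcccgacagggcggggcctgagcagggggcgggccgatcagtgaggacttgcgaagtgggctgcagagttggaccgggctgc
Ncf1: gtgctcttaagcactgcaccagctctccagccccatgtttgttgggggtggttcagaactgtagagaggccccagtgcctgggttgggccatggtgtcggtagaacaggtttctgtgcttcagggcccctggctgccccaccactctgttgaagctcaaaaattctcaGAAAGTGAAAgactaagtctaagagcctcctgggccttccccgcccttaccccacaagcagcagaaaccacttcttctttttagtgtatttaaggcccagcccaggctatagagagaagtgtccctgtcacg
Nox4: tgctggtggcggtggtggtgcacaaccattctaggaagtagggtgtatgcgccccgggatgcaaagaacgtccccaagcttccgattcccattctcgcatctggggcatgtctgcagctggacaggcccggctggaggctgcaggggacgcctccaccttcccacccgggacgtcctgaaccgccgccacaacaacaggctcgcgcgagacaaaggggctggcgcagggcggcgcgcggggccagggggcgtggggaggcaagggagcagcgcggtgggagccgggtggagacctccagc
The Cybb window held 1 match to GAGGAA, on the opposite strand at bases 10 to 15 after the start. It also held 3 matches to the interferon-response pattern, the nearest of them 29 to 20 bases before the start on the strand of the gene. The Ncf1 window held 1 match to that pattern, 82 to 73 bases before the start. The Cyba and Nox4 windows held 0 matches to any of the 3 patterns, and TTGCNNAA was in 0 of the 4 windows. None of the marked matches overlapped another. Of all 32851 windows of this length, 28.3% held GAGGAA, 10.8% held TTGCNNAA and 3.44% held the interferon-response pattern. The Cybb window was poor in G and C, at 35.3% of its bases, against 60.7% for Cyba, 54.0% for Ncf1 and 68.3% for Nox4 and a median of 52.7% over all windows. A match describes the letters only, and binding was not measured.

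Among the cytosolic subunits, Ncf4 had a large difference and Ncf1 a small one. Ncf4, which binds a membrane lipid and sustains the enzyme on phagosomes, was at 9.31, 7.87 and 8.77 in the 3 MPN mice and 4.89 in the control. All 3 MPN arrays lay far above the control, which was under the background limit, so the size of the difference depends on where background lies. The difference was 3.76 (SE 0.66, 95% interval 1.78 to 5.73, limma adjusted p = 0.190).

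Ncf1, the organiser that links the cytosolic subunits to the membrane pair, was at 6.98, 6.08 and 6.80 in the MPN mice and 6.05 in the control. Mice 1 and 3 were above the control, and mouse 2 was level with it, 0.03 higher. The difference was 0.57 (SE 0.45, 95% interval -0.76 to 1.90, limma adjusted p = 0.565). It was 0.31 with the arrays rescaled to equal medians of those receptor genes. Whether the differences of Ncf1 and Ncf4 differ from each other was not tested.

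Of the pair of Rac GTPases, Rac2 lay above the control in each MPN mouse and Rac1 on both sides of it. Rac2, the form restricted largely to blood cells, was at 7.78, 7.84 and 8.86 in the MPN mice and 5.99 in the control. All 3 MPN arrays lay above the control, as for 46.8% of all genes. Mouse 3 was the highest while mice 1 and 2 were close together. The difference was 2.17 (SE 0.56, 95% interval 0.51 to 3.83, limma adjusted p = 0.303), the 143rd highest of all genes. Rac1, the form found in most cell types, was at 8.63, 9.86 and 9.25 in the MPN mice and 9.48 in the control. The control lay within the range of the MPN arrays. The difference was -0.24 (SE 0.56, 95% interval -1.91 to 1.44, limma adjusted p = 0.838), and it was 0.071 without MPN mouse 1.

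Nox4 was at 3.82, 3.69 and 3.54 in the MPN mice and 3.54 in the control. All 4 values were under the background limit, including that of the control array. The difference of 0.14 (SE 0.19, 95% interval -0.43 to 0.71, limma adjusted p = 0.717) lay close to that of the median gene. Its sign turned with the scaling, to -0.048 after cyclic loess and -0.12 with the arrays rescaled on the receptor genes. No level of Nox4 above background was detectable in either group with this probe set.

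**Figure D2:**
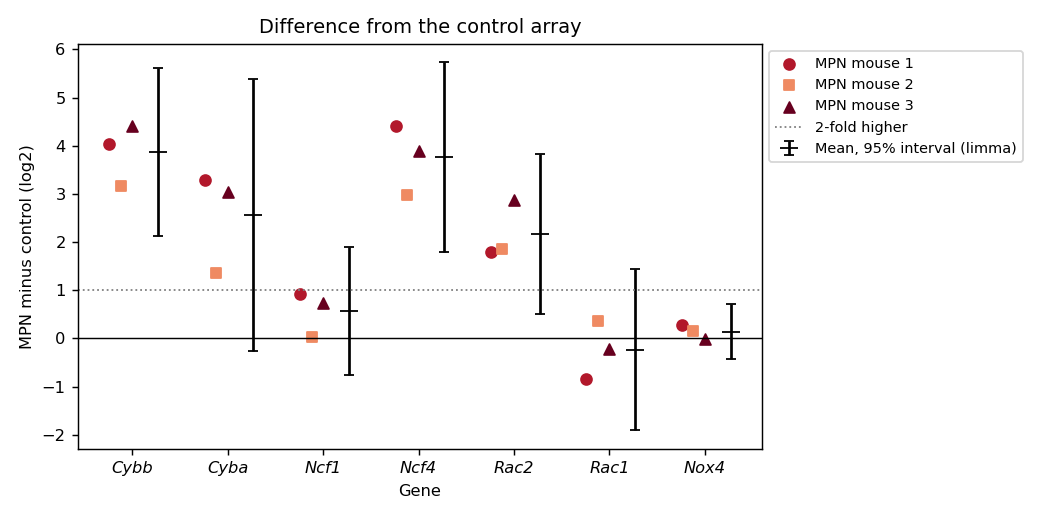
Log2 difference of each MPN array from the control array for the 7 genes, with the mean and its 95% interval from limma, not adjusted for the number of genes, beside the points and a dotted line at 2-fold higher. The intervals of Cybb, Ncf4 and Rac2 lie above 0, while those of Cyba, Ncf1, Rac1 and Nox4 include 0.

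Across the MPN mice, most phagocyte subunits were lowest in mouse 2. The median change from the control over Cybb, Cyba, Ncf1, Ncf4 and Rac2 was 3.29 in mouse 1, 1.85 in mouse 2 and 3.03 in mouse 3. The same median over all genes was 0.20, 0.21 and 0.08. Mouse 2 had the lowest of the 3 MPN values for 4 of these 5 genes. The exception was Rac2, whose lowest value was in mouse 1. The median of the 5 mean differences was 2.56. Without mouse 2 the differences were 4.23 for Cybb, 3.16 for Cyba, 0.84 for Ncf1, 4.15 for Ncf4 and 2.33 for Rac2.

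Markers of neutrophils and of leukocytes at large were higher on the same arrays. Of 12 neutrophil markers, 11 lay above the control on all 3 MPN arrays, against 46.8% of all genes. On each MPN array 9 were 2-fold higher, against 1.13% of all genes. The median difference of the 12 was 3.27. Their linear values summed to between 27288 and 37905 on the MPN arrays and to 8422 in the control, and 0 of the 12 were under the background limit on all arrays. Mmp8, the neutrophil collagenase, was at 10.77, 10.19 and 11.04 against 5.90, and Lcn2, an iron-binding granule protein, at 10.98, 9.78 and 11.37 against 6.49. Ly6g, a neutrophil surface protein, was at 8.59, 6.66 and 7.86 against 3.40, with the control under the background limit. Of 10 pan-leukocyte markers, 8 were 2-fold higher on each MPN array, against 1.13% of all genes. The median of the 10 was 2.67, and their summed level was 7797 to 12868 against 1628. Ptprc, the gene of the CD45 protein that the sort selected against, was at 10.16, 9.46 and 10.40 against 7.07, and Cd53 and Cd52 were higher by 3.67 and 3.42. The part of neutrophil or other leukocyte content in the oxidase differences was not tested. In these bulk samples, more cells of a type and more RNA per cell cannot be told apart.

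Markers of other cell types were higher, lower or near the control. Of 11 monocyte and macrophage markers measured, 2 were 2-fold higher on each MPN array and 2 were 2-fold lower. Over all genes these shares were 1.13% and 5.78%. The median of the 11 was 0.30 (0.18 without mouse 1), and their summed level was 1522 to 3305 against 2783. Ccr2, a monocyte chemokine receptor, was higher by 3.49 and Cd14, a co-receptor for bacterial lipid, by 3.07. Vcam1, which stromal cells also express, had a difference of -3.74. It was at 11.06 in the control and made up most of the control's sum. The sums therefore do not describe the other markers of this list. Mertk, a receptor with which macrophages take up dying cells, picked after its values were known, was at 4.55, 4.58 and 4.48 against 6.79. Adgre1 and Cd163, which define many resident macrophages, were under the background limit on all 4 arrays. Of 12 mesenchymal stromal markers, 11 were 2-fold lower on each MPN array, against 5.78% of all genes. The median of the 12 was -3.39, and their summed level was 879 to 1752 against 13583. Kitl, Postn and Lum, products of stromal cells, were at 10.00, 10.77 and 9.59 in the control. Kitl was under the background limit in all 3 MPN mice and Postn and Lum in mice 1 and 2, so the sizes of their differences of -5.89, -5.20 and -4.55 are uncertain. Nes, whose promoter drives the reporter, was under the limit on all 4 arrays, at 4.56, 3.92 and 4.26 against 4.26. The B cell markers had a median of 0.38 over 7 genes and a summed level of 237 to 2720 against 967, and 3 of the 7 were under the limit throughout. Vpreb1, of B cell precursors, was at 4.36, 11.26 and 4.80 against 9.64. Cd79b and Pax5 were higher by 0.70 and 0.56. The endothelial markers had a median of 0.43 over 8 genes and a summed level of 271 to 317 against 217, with Kdr, Tek and Emcn under the limit throughout. Erg, Egfl7 and Pecam1 were higher by 0.74, 0.61 and 0.60.

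**Figure D3:**
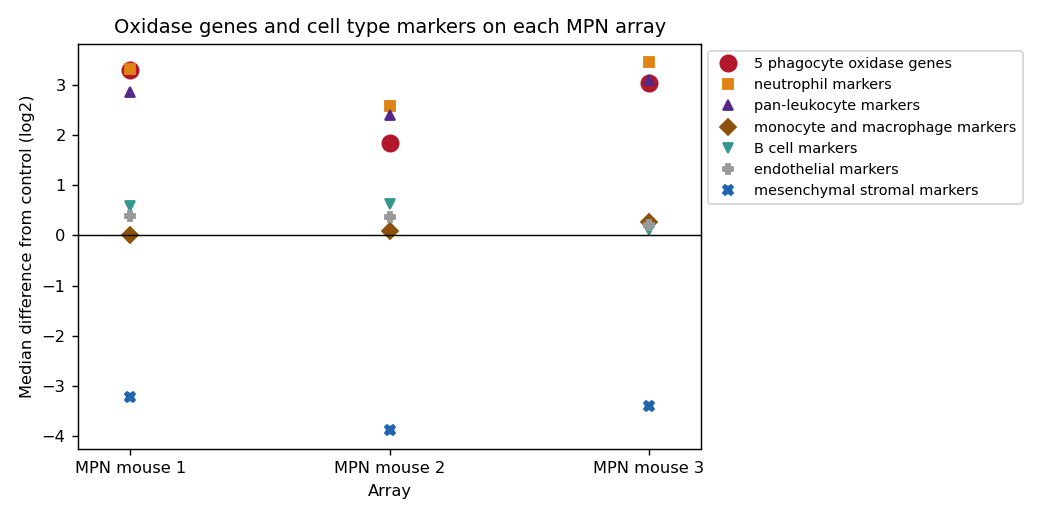
Median log2 difference from the control array on each MPN array for the 5 phagocyte oxidase genes and for 6 lists of cell type markers. The oxidase genes lie near the neutrophil and pan-leukocyte markers on each array, and all 3 are lowest in MPN mouse 2. The mesenchymal markers lie at -3.22, -3.89 and -3.40 in mice 1, 2 and 3, so they too are lowest in mouse 2.

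Mouse 2 had the lowest MPN value for 7 of the 12 mesenchymal markers and for 10 of the 12 neutrophil markers. Among the neutrophil markers the gap was small in genes such as Camp, at 11.67, 11.50 and 11.71. Camp, a granule peptide, was picked after its values were known. The gap was wide for Cxcr2. This chemokine receptor of mature neutrophils was at 9.78 and 9.46 in mice 1 and 3 but at 4.20 in mouse 2, under the background limit and close to the control at 3.84. Itgb2, a pan-leukocyte marker and the beta chain of leukocyte integrins, was at 8.64 and 8.61 in mice 1 and 3 and at 5.32 in mouse 2, below the control at 5.50, and was picked after its values were known. Mpo, the peroxidase of neutrophil granules that uses the oxidase's product, did not show this, at 11.61, 11.87 and 12.15 against 10.45.

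The genes with the pattern most like that of Cybb were found by the root mean square difference between gene-centred log2 values over the 4 arrays. The nearest 5 were Ltf (0.037), Lcn2 (0.205), Chil3 (0.272), Lyz2 (0.304) and Ncf4 (0.326). Predicted genes were left out of this search. Another oxidase subunit, Ncf4, was among the 5, while Cyba lay at 0.684 from Cybb, Rac2 at 0.815, Ncf1 at 1.45, Nox4 at 1.69 and Rac1 at 1.95. Ltf, the iron-binding granule protein lactoferrin, was at 11.52, 10.58 and 11.86 against 7.38, with mouse 2 again the lowest MPN array. For Nox4 the nearest 5 were Tln1, Tmem139, Fam178b, Gria1 and Hspa12a, all within 0.009. Their differences ran from 0.13 to 0.15, so these are genes with flat profiles on the 4 arrays.

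The receptors that trigger the oxidase included some of the higher genes. Of 17 measured, 13 lay above the control on all 3 MPN arrays (46.8% of all genes did) and 4 were 2-fold higher on each (1.13% of all genes). By the same rule 0 were 2-fold lower, and the median was 0.93. Itgam, the alpha chain of the complement receptor on phagocytes, was at 7.34, 7.54 and 8.10 against 4.67, a difference of 2.99 (SE 0.38, limma adjusted p = 0.138). The control value of Itgam was under the background limit, so this size is uncertain. Clec7a, a receptor for fungal glucans, was at 5.38, 8.72 and 7.40 against 4.69, with mouse 2 the highest. Cxcr2 had the largest difference, 3.97, with an SE of 2.78. At an unadjusted p under 0.05 with limma, 5 receptor genes were higher and 0 lower, against 3.97% and 8.63% of all genes, and 0 passed after adjustment over all genes. That adjusted count was 0 in each of the other lists too, although the stromal gene Kitl passed under 3 alternatives.

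Of 19 regulators of the Rac switch measured, 11 lay above the control on all 3 MPN arrays and 4 below, near the 46.8% and 21.1% of all genes. Their median was 0.25, and -0.01 with the arrays rescaled on the receptor genes. Arhgdib, an inhibitor that holds Rac GTPases in the cytosol of blood cells, was at 12.23, 12.05 and 12.33 against 10.10, a difference of 2.11 (SE 0.19, limma adjusted p = 0.0972). Arhgap25 and Arhgap15, which switch Rac off, had differences of 2.33 (SE 1.71) and 2.17 (SE 1.25), with the MPN mice widely spread. These were 1.31 for Arhgap25 without mouse 2 and 1.42 for Arhgap15 without mouse 3. By size, 2 of the list were 2-fold higher on each MPN array (1.13% of all genes), Arhgdib and Dock2, an exchange factor of blood cells, at 1.71 (SE 0.51). The control value of Dock2, 5.18, was just under the background limit. Dock1, its relative of wider expression, was 2-fold lower on each, with a difference of -1.61 (SE 0.37). Dock1 and Dock2 fall outside the naming rule and were chosen after their values were seen.

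The kinases and lipid signals of the burst had a median of 0.56 over 16 genes, 9 of them above the control on all 3 MPN arrays and 3 below, near the 46.8% and 21.1% of all genes. By the 2-fold rule, 0 were higher and 0 lower. Pik3cg, the lipid kinase behind many chemokine receptors, was at 5.66, 6.73 and 7.12 against 4.85, and Plcb2, a phospholipase, was higher by 1.28 (SE 0.65). Pak2, a kinase that Rac activates, had a difference of -1.59 (SE 1.51), with values of 6.17, 5.04 and 8.37 against 8.12, and ran from -2.52 without mouse 3 to -0.85 without mouse 2. Hvcn1, the proton channel that balances the charge moved by the oxidase, was at 5.06, 4.37 and 5.13 against 5.59, below the control on all 3 MPN arrays and under the background limit there.

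The rest of the oxidase family stayed near the control. Of 9 measured, 8 lay above the control on all 3 MPN arrays (46.8% of all genes did) and 0 were 2-fold higher. The median was 0.31, close to the 0.26 of the olfactory and vomeronasal receptor genes. Under the limit on all 4 arrays were 4 of the 9. Duoxa1, a maturation factor of a dual oxidase, was higher by 0.73 (SE 0.23). Nox1, an oxidase of epithelium, was among the 4 under the limit, at 4.09, 4.07 and 3.94 against 3.58. Cybc1, the chaperone that the Cybb protein needs, was at 6.13, 6.50 and 5.86 against 5.77, a difference of 0.40 (SE 0.32), or 0.23 without mouse 2.

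Genes that supply NADPH, the fuel of the enzyme, had a median of -0.05 over 10 genes, which turned to 0.23 without mouse 1 and 0.17 after repeated quantile normalisation, and was -0.18 without mouse 3. By the 2-fold rule 1 was higher on each MPN array and 0 lower, against 1.13% and 5.78% of all genes. The higher gene was Tkt, transketolase of the pentose phosphate pathway, at 7.64, 7.67 and 7.25 against 5.09, a difference of 2.43 (SE 0.25, limma adjusted p = 0.111). The control value of Tkt was under the background limit. Taldo1, transaldolase of the same pathway, was higher by 1.16 (SE 0.25), and Idh1, a cytosolic source of NADPH, had a difference of -2.12 (SE 1.49), or -1.16 without mouse 1. G6pdx, the first enzyme of the pathway, is not analysed here.

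Genes that handle the oxidants had a median of 0.12 over 23 genes, which was 0.073 without mouse 1 and 0.053 without mouse 2. It turned to -0.068 after cyclic loess and -0.14 with the arrays rescaled on the receptor genes. By size, 2 were 2-fold higher on each MPN array and 3 were 2-fold lower, against 1.13% and 5.78% of all genes. The higher pair was Mpo, by 1.43 (SE 0.28), and Gpx1, a cytosolic glutathione peroxidase, by 2.13 (SE 0.25). Gpx1 falls outside the naming rule and was picked once its values were known. The 3 lower were Gpx8, a peroxidase of the endoplasmic reticulum, at 8.02, 5.31 and 8.03 against 10.53, Gpx3, a secreted peroxidase, at 7.60, 7.24 and 6.25 against 10.00, and Prdx4, a peroxiredoxin of the secretory pathway, at 4.49, 6.20 and 7.34 against 8.48. The part of the lower stromal markers in these 3 was not tested.

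Transcription factors that act on phagocyte oxidase genes numbered 14, with a median difference of 0.0029 whose sign turned between alternatives (-0.25 to 0.16). By the 2-fold rule 0 were higher on each MPN array and 1 was lower, near the 5.78% of all genes. Spi1, the gene of PU.1, was at 6.31, 5.43 and 7.31 against 4.91, above the control on all 3 MPN arrays and lowest in mouse 2. Its difference was 1.44 (SE 0.85, limma adjusted p = 0.487), with the control under the background limit. Cebpe, a factor of late granulocyte maturation, was higher by 1.35 (SE 1.32), with 8.92 in mouse 3 alone far from the control at 5.87, and by 0.51 without mouse 3. Irf1, an interferon-induced factor, was at 5.88, 5.88 and 6.21 against 7.55.

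Stromal genes linked to Nox4 had a median of -0.50 over 10 genes, with 0 that were 2-fold higher and 3 that were 2-fold lower on each MPN array, against 1.13% and 5.78% of all genes. Tgfbr1, a receptor of TGF-beta, a signal known to induce Nox4, was at 4.46, 4.50 and 5.32 against 7.05. Hif1a, the oxygen-sensitive factor, was at 5.83, 6.05 and 7.05 against 8.36. Sh3pxd2a, an organiser protein related to Ncf1, was at 9.82, 5.27 and 3.98 against 8.21, on both sides of the control. Sh3pxd2b, its relative and the other 2-fold lower gene, had a difference of -1.51 (SE 0.36) and was picked once its values were known.

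**Figure D4:**
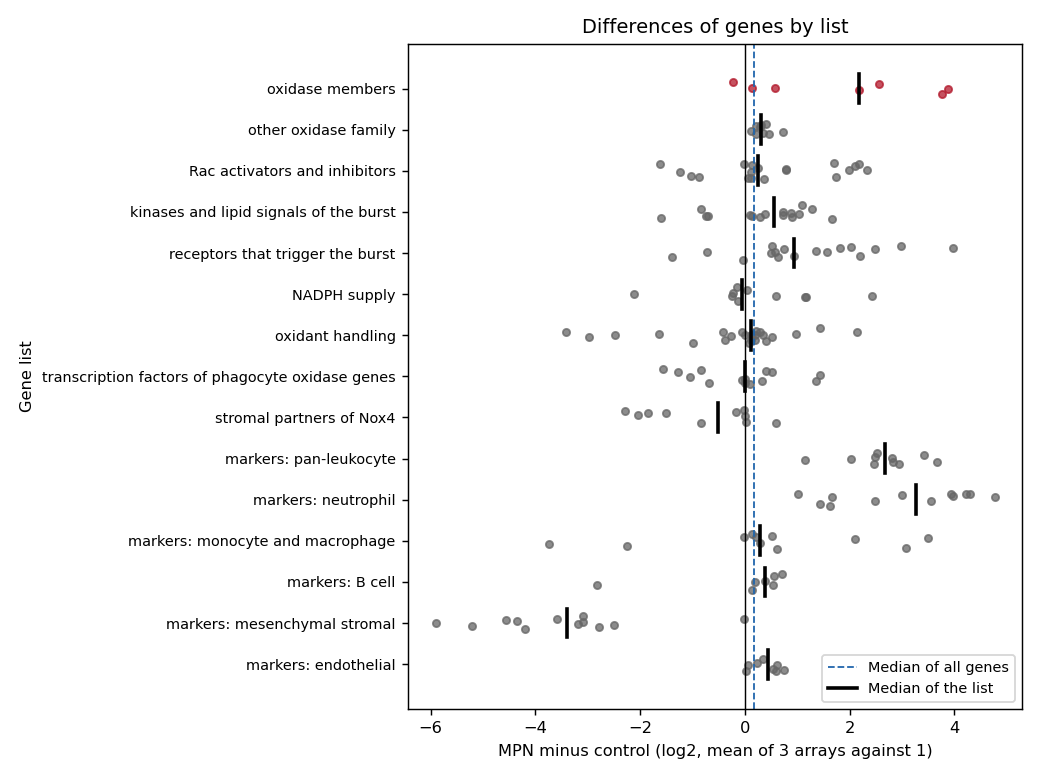
Mean log2 difference from the control array for each gene of the oxidase members, of 8 pathway lists and of 6 marker lists, with a black bar at the median of each list and a dashed line at the median of all genes, 0.18. The oxidase members spread from -0.24 to 3.87, the neutrophil markers lie above 1, and 11 of the 12 mesenchymal markers lie below -2.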

How the data were processed

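Per the labels, RNA of sorted Nes-GFP+ cells was amplified and measured on Affymetrix MoGene arrays. The deposited log2 values were made by the authors with RMA, per the submitters' processing notes. RMA corrects background, brings the probe intensities of the arrays to one distribution and compresses differences near background. The deposited values were not on one distribution, with array medians over all probe sets from 5.09 to 5.16. Of its version, its probe set definitions and a genome build, nothing is stated in the sources used. Of 35556 probe sets, 21789 had 1 gene symbol, 1621 several, and 12146 are unnamed here. Of those with 1 symbol, 21698 matched RefSeq by gene identifier. Each gene kept its probe set of highest mean over all 4 arrays.

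The test was limma 3.58.1, run in R 4.3.3 (lmFit, eBayes, two-sided, 2 residual and 1.39 prior degrees of freedom), with Benjamini-Hochberg adjustment over 19938 genes. The single control is taken to vary as the MPN mice do. SE and interval come from this fit. The fit was tested on simulated data for the size of planted differences only. There the control had the spread of the MPN arrays, so that assumption about the control was not tested. Array data have no read depth, so the number of arrays limits precision.

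The members and lists were chosen with earlier results of these data known. Named genes are the members, up to 3 genes of each list with the largest absolute difference, genes set for their role, and 5 genes nearest to Cybb and to Nox4, without predicted genes. Alternatives left out each MPN mouse, changed the normalisation, probe sets, filter or variance prior. A planned comparison of protein sequences was not made, and some listed items are not reported here.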

Additional observations from a re-analysis of the deposited data

How the results depend on the processing

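Under all 11 alternatives 4 members were 2-fold higher on each MPN array used, and the same 4 genes, Cybb, Cyba, Ncf4 and Rac2, met the rule each time. Leaving out an MPN mouse cannot undo this rule. The changes of probe sets, filter and variance prior left the values of these 4 genes as they were. Only the changes of normalisation could have removed one of them. The share of all genes that met it was 1.87% to 1.90% when 1 MPN mouse was left out and 0.767% to 1.85% otherwise. With limma, 0 members passed the adjusted threshold under any alternative, although 97 genes passed after cyclic loess, 153 with the arrays rescaled to equal medians of the olfactory and vomeronasal receptor genes and 167 with an intensity trend and robust prior. Cybb ranged from 3.61 to 4.23 (adjusted p 0.102 to 0.546), Ncf4 from 3.43 to 4.15, Cyba from 2.19 to 3.16, Rac2 from 1.82 to 2.36 and Ncf1 from 0.31 to 0.84. The median of the 5 phagocyte members ranged from 2.30 to 3.16. The receptor gene rescaling moved the median gene from 0.18 to -0.08.

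Kitl, a stromal marker, passed the adjusted threshold after cyclic loess (-6.05, adjusted p = 0.0480), after the receptor gene rescaling (-6.15, adjusted p = 0.0460) and with the trend and robust prior (adjusted p = 0.0288). Its adjusted p was 0.0871 as deposited. With 1 MPN mouse left out, Rac1 ranged from -0.54 to 0.071 (without mouse 1) and Nes from -0.17 to 0.15 (without mouse 2). After cyclic loess, Nox4 was at -0.048, Tmem139 at -0.064, Gria1 at -0.083 and Hspa12a at -0.083. After the receptor gene rescaling, Nox4 was at -0.12, Tln1 at -0.11, Tmem139 at -0.11, Fam178b at -0.11, Gria1 at -0.12 and Hspa12a at -0.13. That rescaling lowers each difference by the same amount. Without mouse 1, the Rac1 value is the mean of the 0.37 of mouse 2 and the -0.23 of mouse 3. Without mouse 2, the Nes value is the mean of the 0.30 of mouse 1 and the 0 of mouse 3. The cause of the remaining reversals was not tested. Medians of lists turned sign too. NADPH supply went from -0.049 to 0.23 without MPN mouse 1 and 0.17 after repeated quantile normalisation. Oxidant handling went from 0.12 to -0.068 after cyclic loess and -0.14 after the receptor gene rescaling, and the Rac regulators from 0.25 to -0.01 after the latter. The transcription factors, at 0.0029, ranged from -0.25 to 0.16. Of 165 list medians under alternatives, 131 moved by less than the spread of the MPN arrays and 34 by more. The 131 include the medians under the changed variance prior and with all probe sets tested, which cannot move a median. Nox4 gave no value when genes under the background limit were removed. No paired analysis was possible because there is 1 control mouse for 3 MPN mice and its label carries no replicate number.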

Other observations

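Ncf4 and Rac2 lie on the same chromosome, 15, with 10 other protein-coding genes between them in the RefSeq table (GRCm38.p6), all of which were measured. Of these 10, 8 lay above the control on all 3 MPN arrays and 1 below, against 46.8% and 21.1% of all genes, and 0 were 2-fold higher on each, against 1.13%. Their median difference was 0.59, against 0.18 for all genes and 0.26 for the olfactory and vomeronasal receptor genes. The genes next to Ncf4, chosen after their values were seen, are the receptor chains Csf2rb2 and Csf2rb, with differences of 0.73 and 0.93. The control value of Csf2rb2, 4.49, was under the background limit. Sstr3, the neighbour of Rac2, had a difference of 0.20. Il2rb, an interleukin receptor chain of lymphocytes in the same stretch, was at 5.23, 4.81 and 4.69 against 4.24, above the background limit only in mouse 1.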
